A study of Homo sapiens with 24 samples.

Results

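STAT6, 5 other STAT genes, 2 chains of the receptors for IL-4 and IL-13 and the inhibitor gene SOCS1 were followed across 24 RNA-seq libraries of H1299 cells. These 9 genes were taken by symbol from 60563 named genes of the deposited count table. STAT6 was chosen from its measured rise in some of the Δ133p53 cell lines, so its levels are a description and carry no test. The other 8 genes belong to the same family or pathway. Of the 9 genes, 7 had enough reads to be tested, and STAT4 and STAT5A fell under the filter on low counts.

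STAT proteins are transcription factors that wait in the cytoplasm until a cytokine binds its receptor. Janus kinases bound to the receptor then phosphorylate them, and the STAT proteins pair up and enter the nucleus. IL-4 signals through IL4R joined to IL2RG on blood cells or to IL13RA1 on epithelial cells and many tumor cells, and IL-13 signals through the latter pair. STAT6 is the main STAT of these receptors, and SOCS proteins dampen the signal.

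H1299 cells come from a human non-small cell lung carcinoma and are null for p53. Vector control cells, which carried only the empty vector, were compared with 5 H1299 cell lines that each stably express 1 shortened p53 isoform from a plasmid. Δ133p53α was expressed in Δ133p53α1, Δ133p53α2 and Δ133p53α8, and Δ133p53β in Δ133p53β5 and Δ133p53β10. Each cell line is 1 clone, so the effect of an isoform and the difference between clones cannot be told apart. Each line had 4 libraries, and the labels do not say whether these came from separate cultures, so p-values measure the spread between these libraries. The labels count 3 libraries of Δ133p53β5 and 5 of Δ133p53β10, whereas the deposited count columns name 4 of each. The library in question was used as replicate 4 of Δ133p53β5, and results without it are given where a call or a range turned on it or a value moved by over 1.5 times.

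Total counts were between 21531599 and 25381731 per library. The libraries fell into sets of 12 by the sign of a rank correlation across genes between gene length and the deviation of each gene from its mean, which was 0.187 to 0.303 for the positive set and -0.269 to -0.115 for the negative set. Of the 4 libraries of a line, 3 were in the positive set for control, Δ133p53α2 and Δ133p53α8, but 1 was for Δ133p53α1, Δ133p53β5 and Δ133p53β10. Levels are given in CPM, read counts divided by the TMM-scaled library size and expressed per 1000000 reads. The epithelial keratins KRT8 and KRT18 had at least 423 and 452 CPM in every library. VIM, a filament gene that is not specific to carcinoma, had at least 1740 CPM, whereas EPCAM had at most 5 reads and KRT19 at most 4. KRT8 was higher than in control in all 5 Δ133p53 cell lines and KRT18 in 2 of them at an edgeR adjusted p under 0.05. Of 7 immune cell markers, PTPRC, CD3E and MS4A1 had 0 reads in every library, and the 7 together summed to between 0.535 and 2.97 CPM.

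The STAT6 gene lies on the reverse strand of chromosome 12 (ENSG00000166888, chr12:57095408-57132139, GRCh38). The bases before its RefSeq start site are shown because STAT6 is the member whose level differed most between cell lines, and each CG dinucleotide is in capitals (GRCh38.p14, chr12:57110290-57110539, reverse strand, 5′ to 3′).
STAT6: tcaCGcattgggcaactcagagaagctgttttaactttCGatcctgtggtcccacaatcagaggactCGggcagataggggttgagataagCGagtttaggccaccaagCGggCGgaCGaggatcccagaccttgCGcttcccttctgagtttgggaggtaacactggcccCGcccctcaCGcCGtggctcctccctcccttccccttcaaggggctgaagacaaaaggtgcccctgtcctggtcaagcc
This stretch of 250 bases held 11 CG dinucleotides. The annotation also gives STAT6 start sites upstream of this one, and reads were counted per gene, so the site used in each line was not analysed.

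STAT6 was low in control cells and high in 3 of the 5 Δ133p53 cell lines. The 4 control libraries had 2.27, 1.91, 3.53 and 1.95 CPM, from 59, 45, 94 and 46 reads. The libraries of Δ133p53α1 had 19.1, 18, 18.3 and 19.2 CPM. All 4 lay above every control library, and their SD of 0.576 CPM was small beside the mean of 18.7 CPM. The libraries of Δ133p53β5 had 18.6, 17.6, 15.8 and 24.5 CPM, where the last value is from the library with conflicting labels. The libraries of Δ133p53β10 had 28.4, 31.7, 27.9 and 23.6 CPM, and this was the line with the highest mean (27.9 CPM ± 3.30, SD, n = 4). Both Δ133p53β cell lines therefore lay above control in all 8 libraries, and their ranges overlapped with each other between 23.6 and 24.5 CPM, through the library with conflicting labels alone. The other 3 libraries of Δ133p53β5 ended at 18.6 CPM. The libraries of Δ133p53α2 had 5.26, 4.12, 3.94 and 3.44 CPM and overlapped with control in 1 library. The libraries of Δ133p53α8 had 1.02, 2.09, 1.22 and 0.833 CPM, from 24, 45, 29 and 20 reads, so 1 library lay within the control range and 3 lay under it. Against control, the fitted log2 fold change was highest in Δ133p53β10 (3.53, SE 0.263), followed by Δ133p53β5 (2.98, SE 0.258) and Δ133p53α1 (2.95, SE 0.257). It was 0.79 (SE 0.246) for Δ133p53α2 and -0.91 (SE 0.255) for Δ133p53α8. From low to high, the line means ran Δ133p53α8, control, Δ133p53α2, Δ133p53α1, Δ133p53β5 and Δ133p53β10, and the ranges of libraries overlapped between every pair of neighbours in this order other than Δ133p53α2 and Δ133p53α1, and, without the library with conflicting labels, other than both Δ133p53β cell lines.

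**Figure D1:**
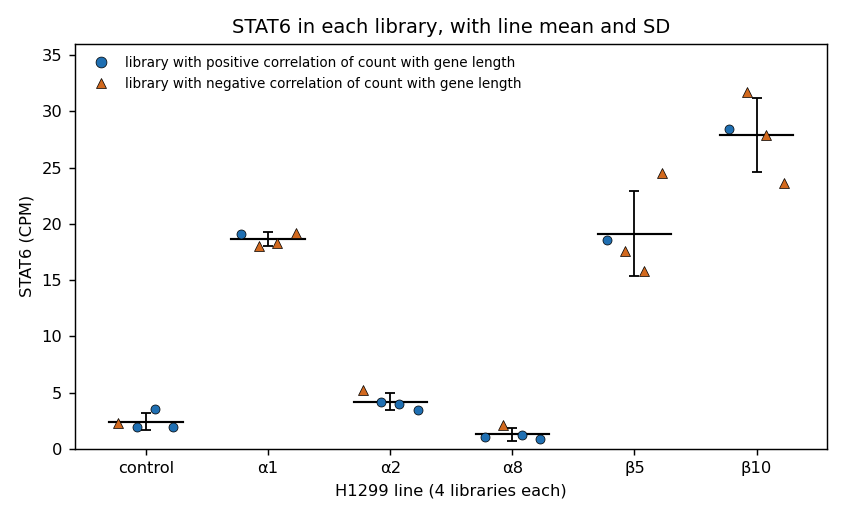
STAT6 level in CPM on a linear axis for control and the 5 Δ133p53 cell lines; each point is 1 library, its shape gives the sign of the correlation of count with gene length, and the bars are the mean and SD of 4 libraries. Δ133p53α1, Δ133p53β5 and Δ133p53β10 lie between 15.8 and 31.7 CPM, and control, Δ133p53α2 and Δ133p53α8 between 0.833 and 5.26 CPM.

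The lines with high STAT6 were also the lines with 3 libraries in the negative set, so STAT6 averaged 17.2 CPM in the negative and 7.33 CPM in the positive set. Within each set the differences between lines were of similar size for the lines with high STAT6. Against control, STAT6 differed by 2.97 on the log2 scale in the positive and 2.98 in the negative set in Δ133p53α1. The same differences were 2.93 and 3.02 in Δ133p53β5, and 3.54 and 3.55 in Δ133p53β10. In Δ133p53α8 the difference was -1.15 in the positive and -0.11 in the negative set, where both control and Δ133p53α8 had 1 library. Between the isoforms, STAT6 was higher in Δ133p53β than in Δ133p53α cells by 2.31 on the log2 scale (SE 0.154), although the Δ133p53α1 clone, at 18 to 19.2 CPM, lay within the range of the Δ133p53β5 libraries. Without the library with conflicting labels, Δ133p53β5 ran from 15.8 to 18.6 CPM and 2 of the 4 Δ133p53α1 libraries lay above it.

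None of the other 6 tested members differed from control in any Δ133p53 cell line at an adjusted p under 0.05 (edgeR's quasi-likelihood test, Benjamini-Hochberg adjustment over 17990 genes). At an unadjusted p under 0.05 the count was 1 in Δ133p53α1 (IL13RA1), 1 in Δ133p53β5 (STAT3) and 0 in the other 3 lines, and DESeq2 and limma-voom also found 0 in every line at an adjusted p under 0.05. SOCS1 passed in both Δ133p53β cell lines with a term for the library set, as described with this gene. A gene was called where it passed this test with a log2 fold change of at least 1.5. The share of all tested genes that were called was 2.46% for Δ133p53α1, 2.63% for Δ133p53α2 and 2.37% for Δ133p53α8. It was 4.32% for Δ133p53β5 and 4.6% for Δ133p53β10, so that a count of 0 called among 6 genes lies near the background. At an adjusted p under 0.05 alone, 3.9% of all tested genes were higher and 5.62% lower in Δ133p53β5. These shares were 4.82% and 5.08% in Δ133p53β10, and those of the Δ133p53α cell lines are given below. STAT6, which was chosen from these contrasts, met the criteria of a call in Δ133p53α1, Δ133p53β5 and Δ133p53β10, which is a description and no test. In bulk RNA, fewer cells that express a gene and less RNA per cell cannot be told apart. The test for any difference among the 6 lines, which 10.1% of all tested genes passed, was passed by 0 of the 6 members other than STAT6. At an unadjusted p under 0.05 this count was 2, IL13RA1 (edgeR adjusted p = 0.0628) and IL4R (edgeR adjusted p = 0.171). DESeq2's likelihood ratio test passed IL13RA1 (adjusted p = 0.00492), limma-voom passed none, and edgeR with a term for the library set passed IL13RA1 and SOCS1.

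**Figure D2:**
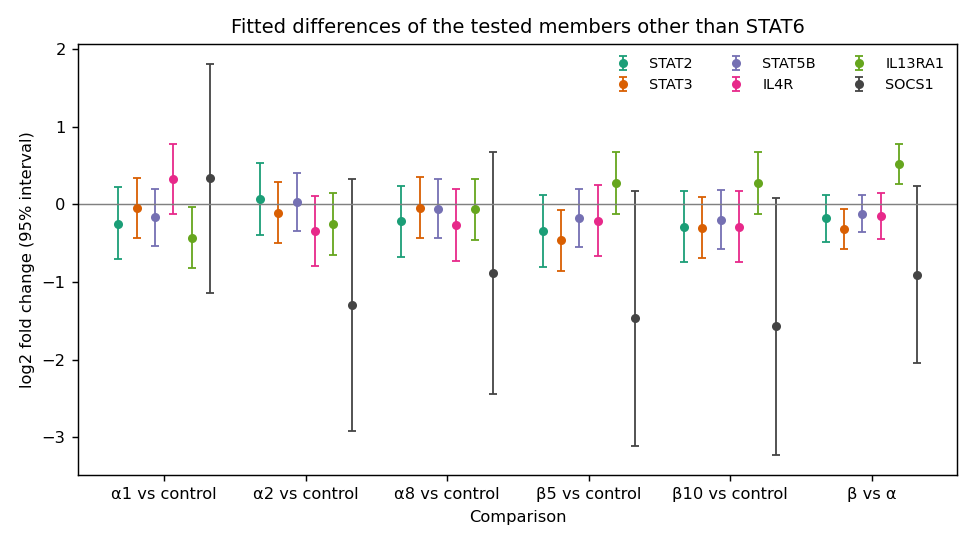
Fitted log2 fold change with its 95% confidence interval for the 6 tested members other than STAT6, for each Δ133p53 cell line against control and for Δ133p53β against Δ133p53α. The intervals of SOCS1 are the widest, and the interval of IL13RA1 for Δ133p53β against Δ133p53α lies above 0, from 0.26 to 0.77.

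IL13RA1 (ENSG00000131724, chrX:118727133-118794535, forward strand) encodes the chain that binds IL-13 and completes the receptor with IL4R. Its 4 control libraries had 41.2, 50.8, 44.1 and 43 CPM. The Δ133p53α1 libraries had 37.2, 30.5, 29.4 and 36.1 CPM, all under the control range. The Δ133p53α2 libraries had 25.8, 40.8, 35.8 and 48.1 CPM, and the Δ133p53α8 libraries had 41.5, 42.0, 40.0 and 47.7 CPM. Both of these lines overlapped with control. The Δ133p53β5 libraries had 62, 48.5, 55.2 and 50.7 CPM, and the Δ133p53β10 libraries had 73.5, 50.1, 40.3 and 51.6 CPM. IL13RA1 was higher in Δ133p53β than in Δ133p53α cell lines, at 54.0 against 37.9 CPM, a log2 fold change of 0.52 (SE 0.121, 95% interval 0.26 to 0.77, edgeR adjusted p = 0.0109). The 8 Δ133p53β libraries ran from 40.3 to 73.5 CPM and the 12 Δ133p53α libraries from 25.8 to 48.1 CPM, so the groups overlapped. Between the isoforms, 2.75% of all tested genes were higher and 2.68% lower at an adjusted p under 0.05, and 1.32% were called. IL13RA1 and STAT6 were the members on the higher side, and IL13RA1 was under the fold change needed for a call. The IL13RA1 difference was 0.74 within the positive and 0.59 within the negative set of libraries, and its adjusted p was under 0.05 in all 34 alternative settings, at most 0.044.

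Against control alone, the IL13RA1 difference was 0.27 in Δ133p53β5 (SE 0.189, adjusted p = 0.381), 0.27 in Δ133p53β10 (SE 0.189, adjusted p = 0.356) and -0.43 in Δ133p53α1 (SE 0.19, adjusted p = 0.168). The Δ133p53β cell lines thus lay above and the Δ133p53α1 line below control by amounts that did not pass the test.

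IL4R (ENSG00000077238, chr16:27313668-27364778, forward strand) encodes the chain shared by both receptor pairs. Control libraries had 36.5, 38, 32.8 and 30.1 CPM. In Δ133p53α1, 3 libraries had 35.7 to 36.8 CPM and replicate 4 had 63.0 CPM, so that the line mean of 43.1 CPM rested on this library. Δ133p53α2 ran from 20.6 to 35.1 CPM, Δ133p53α8 from 23.9 to 38.7 CPM, Δ133p53β5 from 24.7 to 38.2 CPM and Δ133p53β10 from 26.8 to 29.1 CPM. The Δ133p53β10 libraries were all under the lowest control library, but the fitted difference of -0.29 (SE 0.217, 95% interval -0.75 to 0.17) did not pass the test (edgeR adjusted p = 0.388). The log2 differences in the other lines lay between -0.34 and 0.33.

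**Figure D3:**
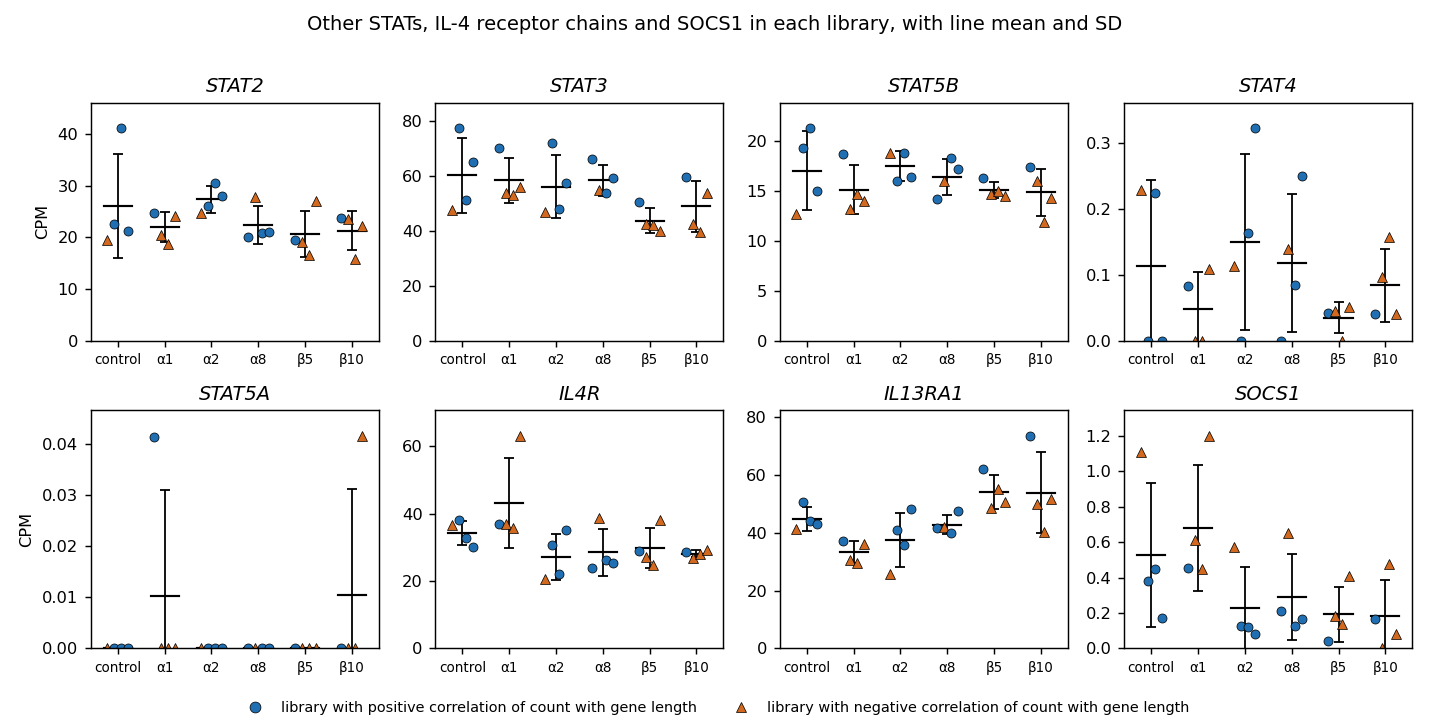
Level in CPM of the 8 members other than STAT6 in every library, by line, with the mean and SD of 4 libraries; each panel has its own linear axis from 0. STAT2, STAT3, STAT5B and IL4R overlap across lines, IL13RA1 is higher in most Δ133p53β than Δ133p53α libraries, and STAT4, STAT5A and SOCS1 lie near 0.

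IL13RA2 (ENSG00000123496, chrX:115003975-115019977, reverse strand) was the receptor chain of this pathway with the largest differences between lines. It is not among the 9 members and was named from the list of ligands and receptor chains. It encodes a decoy receptor that binds IL-13 tightly without the signaling tail of the other chains. Control libraries had 670, 265, 590 and 352 reads, a mean of 18.5 CPM ± 6.60 (SD, n = 4). The Δ133p53α1 libraries had 0, 0, 0 and 1 reads, the Δ133p53α2 libraries 0, 0, 1 and 0, and the Δ133p53β10 libraries 0, 0, 1 and 2. In these 3 lines IL13RA2 was near or at the limit of detection in every library. Against a floor of 3 reads per library, which covers counting error only, Δ133p53α1 was at least 122-fold lower, Δ133p53α2 at least 136-fold lower and Δ133p53β10 at least 134-fold lower. The Δ133p53β5 libraries had 2, 8, 7 and 0 reads, the last being the library with conflicting labels, and IL13RA2 fell by 6.53 on the log2 scale (SE 0.613, edgeR adjusted p = 3.43e-07). The Δ133p53α8 libraries had 94, 161, 89 and 94 reads and kept the highest level of the Δ133p53 cell lines. IL13RA2 fell by 1.95 on the log2 scale in this line (SE 0.468, adjusted p = 0.0152). Without control replicate 1 its adjusted p was 0.0534, and without Δ133p53α8 replicate 1, 3 or 4 it was 0.0628, 0.0708 and 0.068. Δ133p53α8, which kept the most IL13RA2 reads, was the line in which STAT6 was lowest. In Δ133p53α2, STAT6 was also low, at 4.19 CPM against 2.41 CPM in control, but IL13RA2 had 1 read in all. IL13RA2 was thus near the limit of detection in lines with high and with low STAT6. Between the isoforms the fitted IL13RA2 difference was -0.34 on the log2 scale and did not pass the test (edgeR adjusted p = 0.965). With Δ133p53α1, Δ133p53α2 and Δ133p53β10 near the limit of detection, the precision of this contrast is uncertain.

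**Figure D4:**
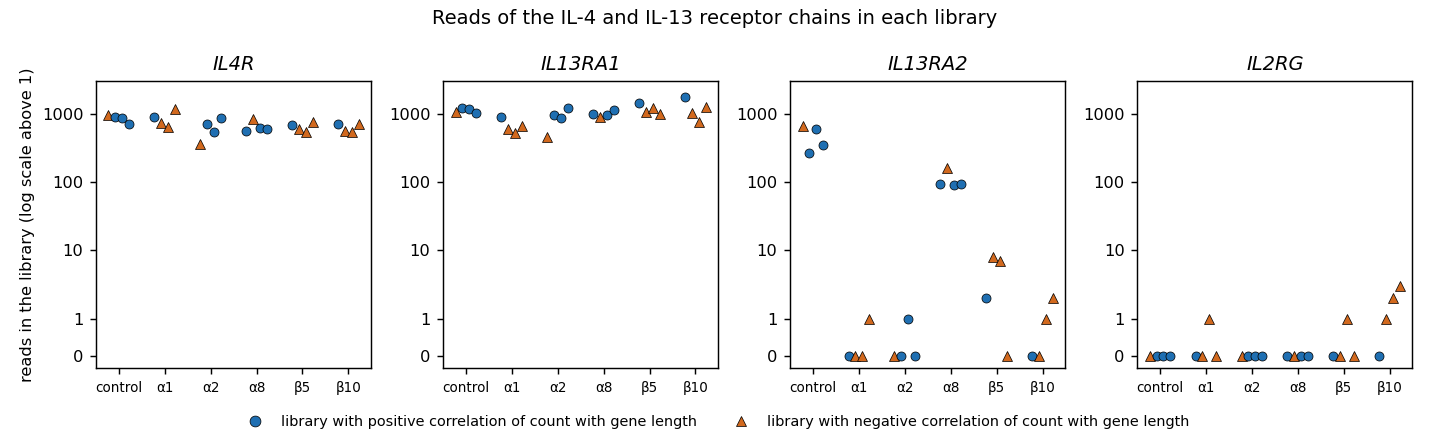
Reads of IL4R, IL13RA1, IL13RA2 and IL2RG in each library by line, on an axis that is logarithmic above 1 read and linear from 0 to 1. IL13RA2 runs from 265 to 670 reads in control, 89 to 161 in Δ133p53α8 and 0 to 8 in the other 4 lines, while IL4R and IL13RA1 have at least 361 reads in every library and IL2RG at most 3.

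The other chain and the ligands had few reads. IL2RG, the common gamma chain of blood cells, had 8 reads over the 24 libraries and at most 3 in a library. IL4 had 7 reads in all and IL13 had 0. Of the 6 ligands and receptor chains, 3 were tested. At an adjusted p under 0.05, 2.04% of all tested genes were higher and 2.71% lower in Δ133p53α1. These shares were 2.16% and 2.96% for Δ133p53α2 and 1.9% and 2.48% for Δ133p53α8. They were 3.9% and 5.62% for Δ133p53β5 and 4.82% and 5.08% for Δ133p53β10. The 3 tested chains counted 0 higher and 1 lower in each line, the latter being IL13RA2. These directional shares are the background for every list below. The lists were written with earlier results of these data known.

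STAT3 (ENSG00000168610, chr17:42313324-42388540, reverse strand), the main STAT of IL-6 type cytokines, had the highest level per exon length of the STAT members, at 4.85 CPM per kb over the 24 libraries. Control libraries had 47.5, 77.4, 51.3 and 65.3 CPM. The Δ133p53β5 libraries had 50.6, 42.4, 42.2 and 40 CPM, and the Δ133p53β10 libraries had 59.7, 42.6, 39.8 and 53.8 CPM. The means of 43.8 and 49.0 CPM were under the control mean of 60.4 CPM, but the ranges overlapped. The log2 differences of -0.46 (SE 0.187, edgeR adjusted p = 0.129) and -0.30 (SE 0.187, adjusted p = 0.294) did not pass the test. STAT3 moved with the sets of libraries, at 60.9 CPM in the positive and 47.8 CPM in the negative set. With the set as a term in the fit, the differences were -0.30 and -0.14.

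STAT2 (ENSG00000170581, chr12:56341597-56360203, reverse strand), the interferon STAT, had 2.51 CPM per kb. Its control libraries had 19.6, 22.6, 41.1 and 21.3 CPM, and the line means of the Δ133p53 cell lines lay between 20.6 and 27.4 CPM. The high control mean of 26.1 CPM rested on replicate 3. STAT5B (ENSG00000173757, chr17:42199176-42288633, reverse strand), which serves growth hormone and prolactin receptors, had 1.32 CPM per kb and line means between 14.9 and 17.5 CPM. Its fitted log2 differences from control lay between -0.20 and 0.03, the narrowest span of the tested members. STAT6 reached 1.68 CPM per kb as a mean over all libraries, 0.33 in control and 3.82 in Δ133p53β10. By length, STAT6 therefore stood under STAT2, STAT3 and STAT5B in control cells and above STAT2 and STAT5B in Δ133p53β10, where STAT2 had 2.30 and STAT5B 1.23 CPM per kb.

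STAT4 (ENSG00000138378, chr2:191029576-191151596, reverse strand), a STAT of IL-12 signaling in lymphocytes, had 0 to 8 reads per library and was not tested. STAT5A (ENSG00000126561, chr17:42287547-42311943, forward strand), the close paralog of STAT5B, had 2 reads over all 24 libraries, 1 in Δ133p53α1 and 1 in Δ133p53β10. STAT5A and STAT5B overlap by 1087 bases and are similar in sequence, and how reads that fit both were counted is not given in the sources used here, so the level of STAT5A is uncertain.

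SOCS1 (ENSG00000185338, chr16:11254417-11256204, reverse strand), an inhibitor of Janus kinases and a response gene of STAT6, stayed low throughout. Control libraries had 29, 9, 12 and 4 reads, or 1.11, 0.383, 0.451 and 0.169 CPM. Δ133p53α1 had 11, 12, 8 and 22 reads, Δ133p53β5 had 1, 4, 3 and 8, and Δ133p53β10 had 4, 0, 9 and 2. The lines overlapped, and the log2 differences of -1.47 in Δ133p53β5 (SE 0.78, edgeR adjusted p = 0.254) and -1.57 in Δ133p53β10 (SE 0.787, adjusted p = 0.195) did not pass the test. Without the library with conflicting labels the SOCS1 difference in Δ133p53β5 was -2.10 (adjusted p = 0.164). SOCS1 also moved with the sets, at 0.49 CPM in the negative and 0.209 CPM in the positive set. With a term for the library set, SOCS1 passed and was called as lower in Δ133p53β5 (-2.15, adjusted p = 0.018) and Δ133p53β10 (-2.16, adjusted p = 0.0197), and it passed between the isoforms (-1.35, adjusted p = 0.0468). SOCS1 was not higher in any of the lines with high STAT6 beyond its spread, the largest difference being 0.34 in Δ133p53α1 (SE 0.701).

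Among the Janus kinases, JAK1 and TYK2, which serve the IL4R and IL13RA1 pair, were well expressed, at 71.6 to 162 and 53.7 to 124 CPM. JAK2 moved with the sets of libraries, at 2.05 to 8.93 CPM in the negative and 6.13 to 16.7 CPM in the positive set. JAK3, the partner of IL2RG, had 0 to 31 reads and was not tested. Of the 3 tested kinases, 0 differed from control in any line or between the isoforms by edgeR, DESeq2 or limma-voom at an adjusted p under 0.05, and 0 did at an unadjusted p under 0.05. Of the 3 tested adaptors of the IL-4 receptor, SHC1 was lower in 4 of the 5 lines, by 0.59 to 0.89 on the log2 scale from 397 CPM in control, with edgeR adjusted p from 0.000464 to 0.0204. In Δ133p53α2 its adjusted p was 0.101 without control replicate 2, 0.0623 without control replicate 4, and 0.0663 and 0.0738 without Δ133p53α2 replicate 3 or 4. In Δ133p53β10 it was 0.0512 without control replicate 2. Of the 34 alternative settings SHC1 passed in 28 in Δ133p53α2, 33 in Δ133p53α8 and 31 in Δ133p53β10. The highest adjusted p over these settings was 0.304, 0.0713 and 0.178. In Δ133p53α1 its difference was -0.10 (adjusted p = 0.648). Of the 6 STAT6 coactivators and cofactors, 0 passed in any line by edgeR without a term for the library set. At an unadjusted p under 0.05 the count was 1 in Δ133p53α1, 1 in Δ133p53α2 and 2 in each of the other 3 lines. DESeq2 passed CREBBP in Δ133p53β5 and NCOA1 and CREBBP in Δ133p53β10, and limma-voom passed none. With a term for the library set, CREBBP, a histone acetyltransferase, passed as lower in 4 lines, namely Δ133p53α2 (-1.03, edgeR adjusted p = 0.000836), Δ133p53α8, Δ133p53β5 and Δ133p53β10 (-0.81, -0.73 and -0.71). That fit also passed STING1 and SND1 in Δ133p53α8 and NCOA1 and STING1 in Δ133p53β10. Without the term, the median log2 difference of the 6 genes was -0.48, -0.20 and -0.42 in the Δ133p53α cell lines in the order of their numbers, -0.75 in Δ133p53β5 and -1.11 in Δ133p53β10, against -0.05 to 0.03 over all tested genes.

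Genes that respond to IL-4 and IL-13 were mostly silent, with 6 of 21 tested. Of these 6, GATA3, a transcription factor of type 2 immunity, was lower in Δ133p53α1 (-1.33, SE 0.317, edgeR adjusted p = 0.0153), Δ133p53β5 (-1.04, SE 0.312, adjusted p = 0.038) and Δ133p53β10 (-1.02, SE 0.312, adjusted p = 0.0411), the 3 lines with high STAT6. Without control replicate 3, GATA3 passed in none of them, with adjusted p of 0.0706, 0.165 and 0.169, and over the 34 alternative settings it passed in 30, 25 and 23. With a term for the library set it did not pass in Δ133p53β10 (-0.77, adjusted p = 0.0696). GATA3 was also under control in the lines without high STAT6, by amounts that did not pass the edgeR test. The log2 difference was -0.69 in Δ133p53α2 (adjusted p = 0.267) and -0.53 in Δ133p53α8 (adjusted p = 0.476). Between the isoforms, TGM2, a crosslinking enzyme, was higher in Δ133p53β cells by 0.81 on the log2 scale (SE 0.151, adjusted p = 0.00178), at 105 against 62 CPM. Against control, TGM2 did not pass in Δ133p53β5 (0.61, edgeR adjusted p = 0.117) or Δ133p53β10 (0.32, adjusted p = 0.373). In Δ133p53α8 it was lower by 0.77 (edgeR adjusted p = 0.0746). There it passed by DESeq2 and with a term for the library set (-0.78, edgeR adjusted p = 0.03). Line means were 76 CPM in control and 58.5, 83.1 and 44.6 CPM in Δ133p53α1, Δ133p53α2 and Δ133p53α8. The Δ133p53α2 libraries ran from 67.9 to 99.6 CPM and overlapped with those of both Δ133p53β cell lines. IL4I1, an amino acid oxidase, passed the test for any difference (edgeR adjusted p = 0.0029) but no single comparison in the same edgeR fit, with 1.28 CPM in Δ133p53α1 and 0.211 to 0.393 CPM in the other lines and control. In Δ133p53α1 its difference of 1.67 missed the threshold by edgeR (adjusted p = 0.0512) and passed by DESeq2 (adjusted p = 0.0173) and limma-voom (adjusted p = 0.0253). Between the isoforms IL4I1 passed with a term for the library set (-1.26, edgeR adjusted p = 0.0174). The median of the 6 genes was -0.38, -0.66, -0.48, -0.69 and -0.73 in Δ133p53α1, Δ133p53α2, Δ133p53α8, Δ133p53β5 and Δ133p53β10, against medians from -0.05 to 0.03 over all tested genes.

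CISH, an inhibitor induced through STAT5, did not pass in any comparison (lowest edgeR adjusted p = 0.163, in Δ133p53α2), with 0.121 to 0.973 CPM over the libraries. Its promoter is shown because it holds 4 copies of TTCNNNGAA, the spaced palindrome that most STAT proteins prefer, in capitals (GRCh38.p14, chr3:50611775-50612024, reverse strand, 5′ to 3′).
CISH: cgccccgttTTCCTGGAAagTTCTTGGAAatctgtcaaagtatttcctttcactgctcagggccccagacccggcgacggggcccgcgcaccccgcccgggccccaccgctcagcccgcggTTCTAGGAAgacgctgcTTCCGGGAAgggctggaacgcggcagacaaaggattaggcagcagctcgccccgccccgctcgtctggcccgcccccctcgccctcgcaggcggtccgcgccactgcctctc
The copies began at bases -241, -230, -129 and -112 from the start site and did not overlap with each other. TTCNNNGAA and the form preferred by STAT6, TTCNNNNGAA, read the same on both strands. Of 35116 RefSeq promoter windows of 300 bases, 7.66% held TTCNNNGAA and 6.44% TTCNNNNGAA. All 9 members had a window, 12 in all. None held TTCNNNGAA, and 1 window, of STAT5A, held TTCNNNNGAA. The other genes of the inhibitor and response lists had 47 windows, of 32 genes. Of these windows, 5 held TTCNNNGAA and 3 held TTCNNNNGAA. A window of BCL6 held 4 copies of TTCNNNGAA, as many as that of CISH. These matches are a description of the letters in these windows.

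Among 16 inhibitors of cytokine signaling, 15 were tested and 0 passed in any line by edgeR. At an unadjusted p under 0.05 the count was 0 in Δ133p53α1, 4 in Δ133p53α2 and 2 in each of the other 3 lines. DESeq2 passed SOCS2 in Δ133p53α2 and Δ133p53β5, and limma-voom passed none. SOCS2 in Δ133p53α2 and SOCS1 in both Δ133p53β cell lines passed with a term for the library set. Among 12 response genes of STAT3 and STAT5, all were tested. At an edgeR unadjusted p under 0.05 the count was 5 in Δ133p53α1, 7 in Δ133p53α2, 4 in Δ133p53α8 and 6 in each Δ133p53β cell line. PIM2, a survival kinase, passed as lower in all 5 lines, from 29.9 CPM in control to between 8.74 and 15.8 CPM in the Δ133p53α cell lines and to 7.90 and 7.80 CPM in Δ133p53β5 and Δ133p53β10. It was called in Δ133p53α2 (-1.77, SE 0.249, edgeR adjusted p = 6.85e-05), Δ133p53β5 (-1.92, SE 0.251, adjusted p = 2.37e-05) and Δ133p53β10 (-1.94, SE 0.251, adjusted p = 2.34e-05). In Δ133p53α1 its adjusted p was 0.0302 and exceeded 0.05 without any 1 of 5 libraries, namely control replicates 1, 2 and 4 and Δ133p53α1 replicates 2 and 3, at most 0.0784. It passed in 26 of the 34 alternative settings, and its adjusted p was 0.0691 with no filter on low counts and 0.1 in a fit of only the lines compared.

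CEBPD, a transcription factor of the acute phase response, rose in Δ133p53β5 from 5.05 to 14.9 CPM (1.56, SE 0.308, edgeR adjusted p = 0.00196) and in Δ133p53β10 to 11.6 CPM (1.19, SE 0.306, adjusted p = 0.0152). FOS, an immediate early gene, was lower in Δ133p53β10, at 1.93 against 10.2 CPM (-2.40, SE 0.659, adjusted p = 0.0234). Its control libraries ran from 1.65 to 21.6 CPM, and without control replicate 3 the adjusted p was 0.13. Without Δ133p53β10 replicate 2, 3 or 4 the adjusted p of FOS was 0.074, 0.0738 and 0.0578. The FOS difference in Δ133p53β10 was -1.79 within the positive and -0.19 within the negative set, which held 3 of the 4 Δ133p53β10 libraries, and it was -1.63 (adjusted p = 0.0477) with a term for the library set. CEBPD in Δ133p53β10 missed the threshold without control replicate 3 (adjusted p = 0.0628) and without Δ133p53β10 replicate 3 (adjusted p = 0.0731). It passed there in 31 of the 34 alternative settings, with a highest adjusted p of 0.0988. Of the STAT3 and STAT5 response genes, PIM2 alone passed in the Δ133p53α cell lines by edgeR without a term for the library set. In that fit 1 gene was higher and 1 lower in Δ133p53β5, and 2 were higher and 2 lower in Δ133p53β10. Between the isoforms it passed PIM1, PIM2 and CEBPD, 1 higher and 2 lower. CCND1 had 276 CPM in control and 397 to 488 CPM in the 5 lines, with an edgeR unadjusted p under 0.05 in each. DESeq2 passed CCND1 in Δ133p53α1 and both Δ133p53β cell lines, FOS in Δ133p53β5 and BCL2L1 in Δ133p53β10. With the term, CCND1 passed in all lines but Δ133p53α8, SOCS2 and BCL2L1 in Δ133p53α2 and BCL3 in Δ133p53β5.

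Among 19 other cytokine receptor chains, 14 were tested. At an edgeR unadjusted p under 0.05 the count was 5 in Δ133p53α1, 2 in Δ133p53α2, 2 in Δ133p53α8 and 6 in each Δ133p53β cell line. Against control, DESeq2 passed EPOR in Δ133p53β5 besides the chains below. With a term for the library set, OSMR passed in Δ133p53α2 and GHR and EPOR in Δ133p53α8. That fit also passed LEPR and EPOR in both Δ133p53β cell lines, IL11RA in Δ133p53β5 and IFNAR2 in Δ133p53β10. Between the isoforms it passed LEPR, IL6R, IL7R and IFNGR2. IL7R, the IL-7 receptor chain that activates STAT5, was low in both Δ133p53β cell lines. Its level was 1.16 CPM in control, 1.80, 2.52 and 1.34 CPM in Δ133p53α1, Δ133p53α2 and Δ133p53α8, and 0.112 and 0.077 CPM in Δ133p53β5 and Δ133p53β10. IL7R was lower between the isoforms by 4.19 on the log2 scale (SE 0.544, edgeR adjusted p = 2.7e-05) and was called against control in Δ133p53β5 (-3.29, adjusted p = 0.0082) and Δ133p53β10 (-3.79, adjusted p = 0.00436). The control libraries had 30, 32, 12 and 40 IL7R reads. Those of Δ133p53β5 had 3, 5, 2 and 0, and those of Δ133p53β10 had 5, 1, 1 and 0. The size of these differences therefore rests on few reads. IFNGR2, a chain of the interferon gamma receptor, was lower in all 5 lines, from 110 CPM to between 52.2 and 67.8 CPM, with log2 differences from -1.07 to -0.70 and adjusted p from 0.000396 to 0.0244. In Δ133p53α8 its adjusted p was between 0.0534 and 0.108 without any 1 of control replicates 1, 2 and 3 and Δ133p53α8 replicates 1, 3 and 4, and in Δ133p53α2 it was 0.0527 without Δ133p53α2 replicate 2. Of the 34 alternative settings IFNGR2 passed in 32 in Δ133p53α1, 31 in Δ133p53α2, 26 in Δ133p53α8 and 33 in Δ133p53β10. The highest adjusted p over these settings was 0.0666, 0.143, 0.11 and 0.0507. Of 11 genes made up of the STAT2 partner IRF9 and interferon response genes, 8 were tested. USP18, which removes ISG15 from proteins, was lower in Δ133p53α2 (-0.99, SE 0.278, adjusted p = 0.038), and none passed in the other 4 lines by edgeR. There the counts at an unadjusted p under 0.05 were 0 in Δ133p53α1, 1 in Δ133p53α8, 2 in Δ133p53β5 and 1 in Δ133p53β10. DESeq2 and limma-voom passed ISG15, a ubiquitin-like protein induced by interferon, in Δ133p53α8. With a term for the library set, ISG15 passed as lower in all 5 lines, with log2 differences from -1.86 to -1.21 and edgeR adjusted p from 0.000119 to 0.00583, whereas without the term they were -1.85 to -0.59 with adjusted p from 0.0564 to 0.468.

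By edgeR without a term for the library set, no tested neighbour of STAT6 on chromosome 12 passed as higher in lines with high STAT6. NAB2 (chr12:57089043-57095476, forward strand), a corepressor of EGR factors, overlaps the end of STAT6 by 69 bases, and LRP1 (chr12:57128483-57213361, forward strand), an endocytic receptor, overlaps its outermost start by 3657 bases. The libraries were made with a strand-marking kit, but the strand setting of the counting is not given in the sources used here, so reads in these overlaps are uncertain. NAB2 had 21.7 CPM in control and between 15.2 and 23.1 CPM in the other lines and did not pass, but with a term for the library set it was lower in Δ133p53β5 (-0.82, edgeR adjusted p = 0.00332) and Δ133p53β10 (-0.72, adjusted p = 0.0106). LRP1 had 19.5, 15, 65.5 and 12.9 CPM in the control libraries and line means from 4.35 to 6.82 CPM in the Δ133p53 cell lines. Its log2 difference from control was -2.47 for Δ133p53α2 (SE 0.616, edgeR adjusted p = 0.0185) and -2.65 for Δ133p53α8 (SE 0.621, adjusted p = 0.013). It was -2.40 for Δ133p53β5 (SE 0.614, adjusted p = 0.0141) and -2.70 for Δ133p53β10 (SE 0.622, adjusted p = 0.00714). Without the library with conflicting labels the LRP1 difference in Δ133p53β5 was -3.22 (adjusted p = 0.00287). In Δ133p53α1 the difference was -2.05 (SE 0.606, adjusted p = 0.0532). Without control replicate 3 the differences were between -1.86 and -1.21 and none passed, with adjusted p from 0.0569 to 0.272. The adjusted p was also between 0.0537 and 0.0619 without Δ133p53α2 replicate 1, 2 or 3, Δ133p53α8 replicate 1, 3 or 4, or Δ133p53β5 replicate 2 or 3, each in its own line. In Δ133p53α1 it was between 0.0295 and 0.0476 without any 1 of 7 libraries. LRP1 was thus lower in lines with high and with low STAT6. Of the 9 neighbours other than LRP1, 0 passed the test for any difference among the 6 lines by edgeR, DESeq2 or limma-voom. In this test 0 had an unadjusted p under 0.05 by edgeR. Against control, 0 passed in any line by edgeR, DESeq2 or limma-voom. The edgeR unadjusted p was under 0.05 for NXPH4 in Δ133p53α1, Δ133p53α2 and Δ133p53β10, SHMT2 and ENSG00000276727 in Δ133p53α2, and PRIM1 in Δ133p53α8. Between the isoforms it was under 0.05 for NAB2. NXPH4 had 1.28 CPM in control and line means from 2.30 to 3.23 CPM in the Δ133p53 cell lines. With a term for the library set NAB2 passed the test for any difference (edgeR adjusted p = 0.0108) and passed between the isoforms (-0.53, adjusted p = 0.00474), and PRIM1 passed in Δ133p53β5.

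**Figure D5:**
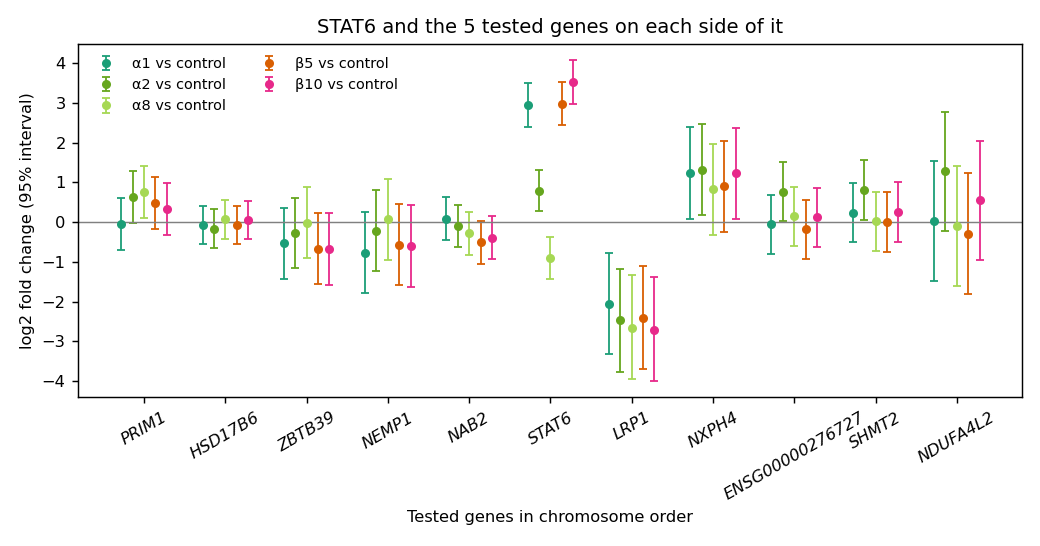
Fitted log2 fold change with its 95% confidence interval of STAT6 and of the 5 tested genes on each side of it, in chromosome order, for each Δ133p53 cell line against control. STAT6 stands at 2.95, 2.98 and 3.53 in Δ133p53α1, Δ133p53β5 and Δ133p53β10, LRP1 lies between -2.70 and -2.05 in all 5 lines, and no other gene passes the edgeR test for any difference among the lines in the fit drawn here; NAB2 passes it with a term for the library set.

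The genes with the level pattern most like STAT6 were taken by Pearson's r of log2 CPM over the 24 libraries, among 14914 genes, as a description. The 24 libraries share lines and the sets described above. Among the 5 highest r were those of ENSG00000287149 (0.885), ATP6V1H (0.882), IKBKG (0.858) and ADCY7 (0.841), and among the 5 lowest were those of FAIM (-0.859), LAYN (-0.837), ENSG00000261505 (-0.806) and GRB14 (-0.806). FAIM, an inhibitor of Fas-induced cell death, had 7.10 CPM in control, 2.40 in Δ133p53α8 and between 0.0683 and 0.585 in the other 4 lines. Its level was thus under control also in Δ133p53α2 and Δ133p53α8, where STAT6 was low, so it did not mirror STAT6 line by line. By Spearman's rho, 2 of the 5 highest and 1 of the 5 lowest were shared, so the order depended on the measure. No other member was among the 5 highest or the 5 lowest.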

How the data were processed

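RNA of H1299 vector control cells and 5 Δ133p53 cell lines was measured in 24 samples, 4 per line, and poly(A) RNA was made into libraries with a dUTP kit that marks the strand. The authors used Cutadapt for trimming, HISAT2 for alignment to hg38 and featureCounts for counting, and deposited raw read counts of 60564 genes without normalization. How strand and multiply mapped reads were treated in counting is not given in the sources used here. The reads of the expressed isoforms were not analysed here. 1 gene without a name, with 0 reads, was left out. No library repeated another, since all 36 pairs of libraries within a line differed by at least 17.2 in chi-square per degree of freedom.

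Counts were tested in R 4.3.3 with edgeR 4.0.16 (TMM scaling, filterByExpr by group, 17990 genes kept, 1 quasi-likelihood fit of 24 libraries in 6 groups with 18 residual degrees of freedom). P-values were adjusted by Benjamini-Hochberg over all tested genes of a comparison. As in the study, a call needed both an adjusted p under 0.05 and a log2 change of at least 1.5. 95% intervals used 18 degrees of freedom. The procedure was tested on simulated data. Alternatives were size factors by RLE, no low-count filter, a mean of at least 1 CPM, DESeq2 1.42.0, limma-voom (limma 3.58.1), only the lines compared, the replicate number as a block, a term for the library set, the library with conflicting labels in Δ133p53β10 or left out, and each library left out in turn. Where every library of a line had 3 reads or fewer, a fold was computed against 3 reads per library. PCR reads carried no molecular identifiers, so such floors cover counting error only.

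The named genes were the 9 members, the receptor chains and Janus kinases, the genes of 11 fixed lists that were called, the 5 tested genes on each side of STAT6, and the 5 most and least like it in log2 CPM (prior count of 2, mean of at least 1 CPM). Of the latter 10, 2 are not reported here. Genes that passed the test without a call, CISH and the markers were named after their values were seen. The members and lists were chosen with earlier results of these data known. Gene positions are from GENCODE on GRCh38, promoters from RefSeq, and figures were drawn with matplotlib.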

Additional observations from a re-analysis of the deposited data

Results flagged for a closer look

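In 6 of 45 groups of 4 libraries (1 member in 1 line, with more than 3 reads in some library), 1 library lay far from the other 3 by Dixon's test, which by chance alone flags about 1 in 20 groups. STAT2 had 41.1 CPM in control replicate 3, where the others ran from 19.6 to 22.6 CPM, and 27.8 CPM in Δ133p53α8 replicate 2, where the others had 20 to 21 CPM. IL4R had 63 CPM in Δ133p53α1 replicate 4 against 35.7 to 36.8 CPM, and 38.7 CPM in Δ133p53α8 replicate 2 against 23.9 to 26.1 CPM. SOCS1 had 0.572 CPM in Δ133p53α2 replicate 1 against 0.0808 to 0.129 CPM, and 0.65 CPM in Δ133p53α8 replicate 2 against 0.127 to 0.212 CPM. Δ133p53α8 replicate 2 and Δ133p53α2 replicate 1 are the only libraries of their lines in the negative set, and the part of the set in these values was not tested. IL13RA1 differed between the isoforms by 0.52 on the log2 scale, higher in Δ133p53β, by the contrast of the edgeR fit (adjusted p = 0.0109).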

How the results depend on the processing

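Over 34 alternative settings no called value changed sign, and 32 of 3662 recomputed values of 18 genes changed sign, none of them past the threshold. The number of genes called moved by over 1.5 times in all 6 comparisons with the filter at a mean of 1 CPM, which left 14943 genes and 264, 287, 267, 497 and 508 calls in Δ133p53α1, Δ133p53α2, Δ133p53α8, Δ133p53β5 and Δ133p53β10 and 127 between the isoforms, against 442, 474, 427, 777, 828 and 238. Fits of only the lines compared gave 295 calls in Δ133p53α2 and 429 in Δ133p53β10. The test for any difference passed 1823 genes and 1 member, 3583 genes and 2 members by DESeq2's likelihood ratio test, and 3362 genes and 3 members with the library set in the fit, where the members were STAT6, IL13RA1 and SOCS1. That term also gave 2 called members in Δ133p53β5 and 2 in Δ133p53β10. The cause was not tested.

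Leaving out 1 library at a time gave 322 to 1568 calls in Δ133p53α1 (the highest without its replicate 1), 420 to 525 in Δ133p53α2, 340 to 561 in Δ133p53α8, 601 to 911 in Δ133p53β5, 581 to 1309 in Δ133p53β10 (the highest without its replicate 1), 233 to 281 between the isoforms and 1481 to 2576 for any difference. Members called stayed at 1 in Δ133p53α1, Δ133p53β5, Δ133p53β10 and between the isoforms and at 0 in the others, and 1 to 2 passed for any difference. In all, 93 recomputed values lost and 32 gained the threshold.

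The groups share replicate numbers, but same-numbered libraries did not deviate together: 22 of 60 pairs had a correlation above 0.1, from -0.886 to 0.893 with a median of -0.023, and 2 of 24 libraries were closest to their own number. With the replicate block 381, 432, 378, 713 and 706 genes were called in the 5 lines, 228 between the isoforms, and 1366 passed for any difference, with the same number of members. Of the named results that passed, PIM2 in Δ133p53α1 had an adjusted p of 0.0529 with the block. Depth limited STAT4, STAT5A, SOCS1, IL2RG, IL7R and IL13RA2, whose counts reached single reads.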
